A study of Drosophila melanogaster with 7 samples.

Results

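The JNK pathway and wound response group comprised 10 genes of Eiger-JNK-AP-1 signalling and of its damage outputs, chosen by symbol from the 17208 genes of the count table: egr, grnd, hep, bsk, Jra, kay, puc, Mmp1, Ilp8 and Ets21C. RNA was sequenced from wing imaginal discs, the larval epithelial sacs from which wing and notum arise, of third-instar Drosophila melanogaster. The 3 wild-type (WT) libraries are named w1118.csvd111, of which w1118 is a common laboratory strain with a mutation of the white gene and the second term is not explained in the labels, and the 4 libraries labelled ds38k come from larvae mutant for dachsous (ds), which encodes an atypical cadherin that binds Fat. The labels name no treatment beyond genotype, and information on larval sex, hours of age, discs per library and zygosity was not given in the sources used here. As the labels do not tell whether replicates are separate dissections, p-values reflect how far these particular libraries differ, a spread that may be technical.

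In the Drosophila disc, the TNF ligand Eiger binds the receptors Grindelwald and Wengen and starts a kinase relay that ends in Hemipterous, the kinase of JNK, and Basket, the JNK itself. Basket phosphorylates Jun (Jra) and Fos (kay), which bind DNA together as AP-1. AP-1 raises puckered, whose product dephosphorylates Basket, and genes used in wound closure and regeneration, among them a matrix metalloproteinase, a relaxin-like hormone that delays pupariation and an ETS transcription factor. Most of the relay is controlled by phosphorylation, which RNA sequencing does not measure.

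Library totals ran from 21438604 to 31718937 counts in WT and from 25192527 to 31141974 in ds38k. The targeted gene ds had 1422 to 1701 CPM (counts scaled to a common library total, with TMM factors) in WT and 161 to 229 in ds38k. Ribosomal RNA genes took 1.13% ± 0.336 of the counts (SD, n = 3) in WT and 13.3% ± 1.56 (SD, n = 4) in ds38k, and fold changes ran with transcript length, so fold changes are also given with that length trend removed (for ds itself, -1.19 ± 0.08 in place of -2.95 ± 0.14). Among the ds38k libraries, replicate 4 stood apart. Its Spearman correlation over genes with the other ds38k libraries was 0.942 to 0.955, whereas replicates 1 to 3 correlated with each other at 0.985 to 0.99. It differed by more than 1 log2 unit from the mean of the others in 18.2% of tested genes, against 6.45% to 9.39% for the other ds38k libraries. The 6 Hsp70 copies, the inducible heat shock genes, summed to 13270 CPM in replicate 4, to 1.93 to 115 CPM in ds38k replicates 1 to 3 and to 1.56 to 3.79 CPM in WT. Wing disc markers (nub, vg, ap, en, wg, dpp, sd and Dll) were present in all libraries, with summed levels of 2068 to 2744 CPM in WT and 1048 to 1546 CPM in ds38k. Fat body markers summed to 11.9 to 21.9 CPM in WT, to 705 to 2477 CPM in ds38k replicates 1 to 3 and to 52.4 CPM in replicate 4.

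Of the 10 genes, all of which passed the filter on low counts, 2 rose and 0 fell in ds38k over all libraries (quasi-likelihood test of edgeR, adjusted by Benjamini-Hochberg over 9294 genes, threshold 0.05). The 2 that rose were egr, the TNF ligand gene, and bsk, the JNK gene. Across all tested genes 65.0% were called (34.2% higher and 30.8% lower), so the share of called members lay below that of the whole table. The median log2 fold change of the 10 was 0.08, beside 0.07 over all genes tested. The CPM ranges of the genotypes did not overlap for the same 2 genes, against 66.4% of all tested genes. Without ds38k replicate 4, 2 rose (egr and bsk) and 2 fell, kay, the Fos gene, and Ilp8, the gene of the relaxin-like hormone, beside 70.9% of all genes called (36.3% higher and 34.6% lower). The ranges were then apart for 5 of the 10 (egr, bsk, kay, Ilp8 and Ets21C), against 76.2% of all genes. Without replicate 4, Ilp8 passed the filter through WT alone, so a fall was the only call open to it. With the length trend removed 2 rose (egr and hep) and 0 fell, beside 46.7% of all genes called. With both changes 3 rose (egr, hep and Mmp1) and 2 fell (kay and Ilp8), beside 55.3%. A fit with the replicate number as a block called 5 of the 10 (egr and bsk higher, kay, Ilp8 and puc lower), beside 70.7% of all genes. In these bulk samples, fewer cells of a type and less RNA per cell cannot be told apart.

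**Figure D1:**
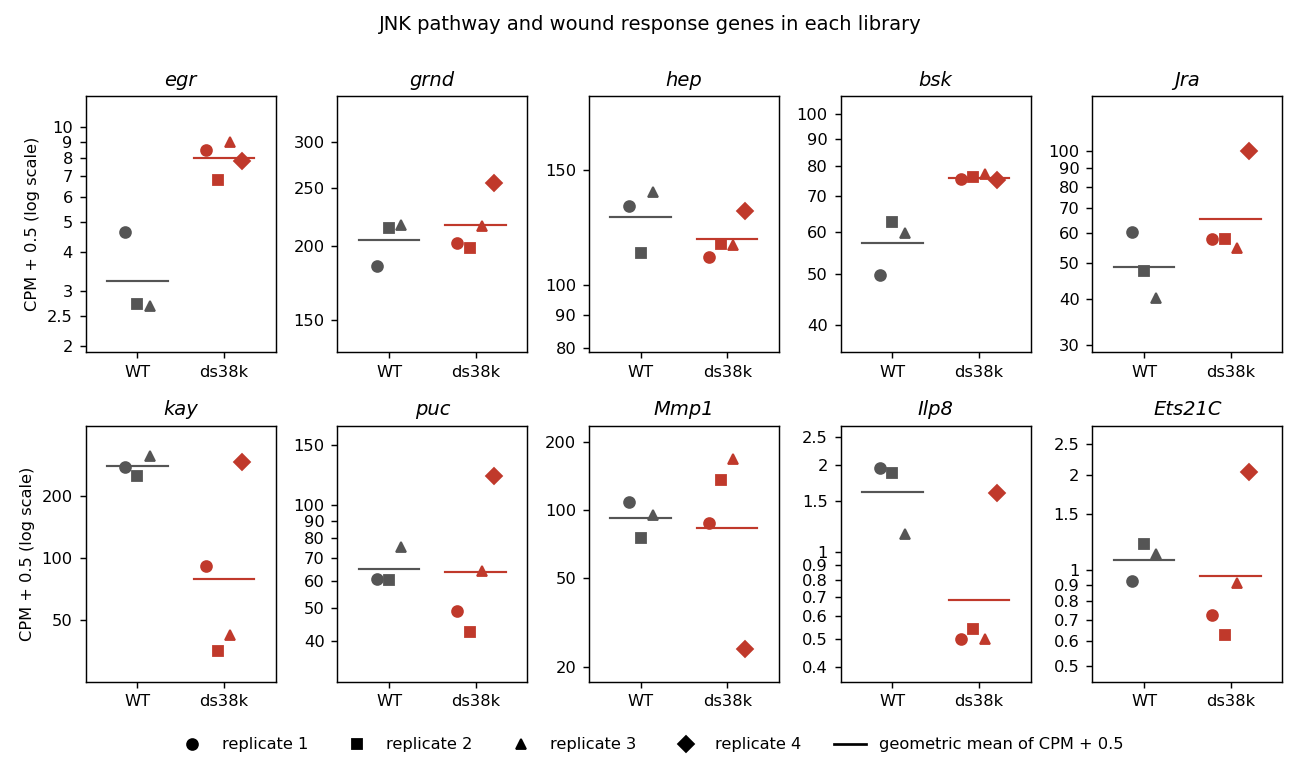
Level of each of the 10 genes in each library, as CPM + 0.5 on a log axis whose range differs between panels; grey is WT, red is ds38k, symbols mark the replicates and bars the geometric mean of CPM + 0.5. The genotypes separate for egr and bsk, while replicate 4 (diamond) lies far from the other ds38k libraries for kay, puc, Mmp1, Ilp8 and Ets21C.

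The ligand gene egr (FBgn0033483; dm6 2R:10078366-10084210, plus strand) had 4.14, 2.23 and 2.18 CPM in the WT libraries, in replicate order, and 7.97, 6.30, 8.47 and 7.31 CPM in those of ds38k. All 4 ds38k libraries lay above all WT libraries, at a low level in both genotypes. The means were 2.85 ± 1.12 CPM (SD, n = 3) and 7.51 ± 0.933 CPM (SD, n = 4), and the log2 fold change was 1.40 ± 0.29 (SE; edgeR adjusted p = 0.00431). Permuting the libraries exactly (two-sided, on log2 CPM) gave p = 0.0286, and the 35 splits of 7 libraries allow no smaller one. The rise was 1.35 ± 0.29 with the length trend removed (edgeR adjusted p = 0.00794) and 1.42 ± 0.31 without replicate 4 (edgeR adjusted p = 0.00496), and it was called in each of the 7 fits that left out a library. Fat body markers were also higher in ds38k, at 709.9, 2477, 705 and 52.4 CPM in replicates 1 to 4. Their part in the level of egr was not tested.

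Its receptor gene grnd (FBgn0032682; 2L:18485417-18488021, plus strand) had 185, 214 and 216 CPM in WT and 201, 198, 216 and 255 CPM in ds38k. The groups overlapped, with replicate 4 of ds38k highest. The log2 fold change was 0.09 ± 0.11 (SE; edgeR adjusted p = 0.531), and -0.06 ± 0.11 with the length trend removed. Annotated exons of kon, on the other strand, cover 13.1% of the exonic bases of grnd, and the strand setting was not given in the sources used here. On its side the kon gene had 52.4 to 73.9 CPM in WT and 14.6 to 21.1 CPM in ds38k.

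Of the kinase genes, bsk (FBgn0000229; 2L:10247502-10250501, minus strand) had 49.3, 62.3 and 59.2 CPM in WT and 74.9, 75.7, 76.7 and 74.7 CPM in ds38k. The ds38k libraries lay close together, replicate 4 included, and above every WT library. Means were 56.9 ± 6.75 CPM in WT (SD, n = 3) and 75.5 ± 0.926 CPM in ds38k (SD, n = 4), a rise of 1.33-fold, or 0.41 ± 0.09 in log2 units (SE; edgeR adjusted p = 0.0069; exact permutation p = 0.0286). With the length trend removed the value was 0.15 ± 0.10 and was not called (edgeR adjusted p = 0.23). The bsk transcripts have a median annotated length of 1655 bases. Among the members, the length correction lowered the log2 fold change of the shorter Ilp8, Jra, bsk, grnd and egr and raised that of the longer genes. The part of transcript length in the rise of bsk was not tested.

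The JNK kinase gene hep (FBgn0010303; X:13079205-13090434, minus strand) had 132, 111 and 138 CPM in WT and 109.9, 115, 115 and 129 CPM in ds38k, with overlapping groups. Its log2 fold change was -0.12 ± 0.10 (SE; edgeR adjusted p = 0.333). With a median transcript of 4893 bases it is the longest of the 10, and the length correction moved it most, to a called rise of 1.11 ± 0.09 (edgeR adjusted p = 2.11e-04). The sign for hep therefore depends on that correction, and neither value depends on replicate 4 (-0.17 ± 0.10 and 1.10 ± 0.10 without it). The uncorrected sign also depends on the scaling, with 0.14 ± 0.10 under upper-quartile factors (edgeR adjusted p = 0.226).

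The AP-1 genes differed in how far their libraries spread. Fos, encoded by kay (FBgn0001297; 3R:29765995-29794113, plus strand), had 276, 248 and 312 CPM in WT and 90.7, 34.6, 41.8 and 290.1 CPM in ds38k. Replicates 1 to 3 of ds38k lay below every WT library, whereas replicate 4 lay inside the WT range, at 5.21 times the mean of replicates 1 to 3. The highest ds38k library was 8.37 times the lowest, beside 1.26 times in WT. Over all libraries the log2 fold change was -1.28 ± 0.71 (SE; edgeR adjusted p = 0.146; exact permutation p = 0.114). Without replicate 4 kay fell by 2.32 ± 0.36 on the log2 scale (edgeR adjusted p = 9.31e-04); removing the length trend as well left a fall of 1.43 ± 0.33 (edgeR adjusted p = 0.00908).

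Jun, encoded by Jra (FBgn0001291; 2R:10096480-10098556, plus strand), had 59.9, 46.9 and 39.8 CPM in WT and 57.4, 57.4, 54.3 and 99.6 CPM in ds38k. Replicates 1 to 3 of ds38k lay inside the WT range, and replicate 4 above all other libraries. The log2 fold change was 0.46 ± 0.25 (SE; edgeR adjusted p = 0.146), 0.21 ± 0.15 without replicate 4 (edgeR adjusted p = 0.248) and 0.16 ± 0.26 with the length trend removed (edgeR adjusted p = 0.633), and its sign turned, to -0.12 ± 0.13, with both changes. Its exons share 39 bases with RpLP0-like on the other strand.

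Among the outputs, puc (FBgn0243512; 3R:8105332-8122294, plus strand), the phosphatase gene widely used as a readout of JNK activity in the fly, had 60.4, 59.6 and 74.8 CPM in WT and 48.3, 42.1, 63.6 and 121 CPM in ds38k. The groups overlapped, with replicate 4 above and replicates 1 and 2 of ds38k below all WT libraries. The log2 fold change was 0.08 ± 0.36 (SE; edgeR adjusted p = 0.846) and -0.34 ± 0.17 without replicate 4 (edgeR adjusted p = 0.113), so its sign rested on that library. Neither of these values was called, nor was that with the length trend removed (0.33 ± 0.33, edgeR adjusted p = 0.446). The fit with the replicate block called puc lower, at -0.35 (edgeR adjusted p = 0.0163). That fit rests on replicates 1 to 3, takes replicate numbers as pairs and has 2 residual degrees of freedom.

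The hormone gene Ilp8 (FBgn0036690; 3L:17029812-17032080, minus strand), also called Dilp8, was near the limit of detection. It had 34, 48 and 19 counts in WT (1.45, 1.37 and 0.657 CPM) and 0, 1, 0 and 30 counts in ds38k, where replicate 4 reached 1.10 CPM. A floor of 3 counts per library corresponds to 0.112 and 0.123 CPM in ds38k replicates 1 and 3. The level was thus at or under the floor in replicates 1 to 3 at this depth and inside the WT range in replicate 4. Over all libraries the log2 fold change was -1.98 ± 1.36 (SE; edgeR adjusted p = 0.233; exact permutation p = 0.0857). The length-corrected value was -2.53 ± 1.43 (edgeR adjusted p = 0.183). Without replicate 4 Ilp8 was called lower (edgeR adjusted p = 6.07e-04). In that fit it passed the filter on low counts through WT alone, where it is high, so only a fall could be called. That call is therefore no independent evidence of a fall. The 1 count of ds38k replicates 1 to 3 against 101 counts of WT gives a level 0.0116 times that of WT, with an exact 95% interval of 2.90e-04 to 0.0659 that covers counting error only.

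Mmp1 (FBgn0035049; 2R:24671294-24688184, minus strand), a matrix metalloproteinase gene, had 109, 74.2 and 94.7 CPM in WT and 86.8, 136, 169 and 23.7 CPM in ds38k. It ran the other way from the other outputs, with replicate 4 the lowest of all libraries and ds38k replicates 2 and 3 the highest. The log2 fold change was 0.17 ± 0.56 (SE; edgeR adjusted p = 0.805), 0.79 ± 0.59 with the length trend removed (edgeR adjusted p = 0.302) and 0.50 ± 0.25 without replicate 4 (edgeR adjusted p = 0.111). With replicate 4 left out and the length trend removed Mmp1 rose by 1.13 ± 0.25 (edgeR adjusted p = 0.00804), a call made in neither setting alone. Over the 4 ds38k libraries the 5 fat body markers summed to 709.9, 2477, 705 and 52.4 CPM, lowest in replicate 4 as Mmp1 was. The summed level of 8 hemocyte markers, which include Hml, NimC1 and eater, was 62.2 to 138 CPM in WT, 88.7 to 123 CPM in ds38k replicates 1 to 3 and 61.8 CPM in replicate 4, and the NimC4 marker was at or near 0 throughout. The largest part of that sum in ds38k was crq, at 50.3 to 71.2 CPM. These markers differed in direction over all libraries. Hml was called lower (log2 fold change -2.09 ± 0.49, SE), crq was called higher (0.65 ± 0.23), and 5 were not called. With the length trend removed 0 of the 7 tested were called. Hml was then at -0.32 ± 0.41 (edgeR adjusted p = 0.556) and crq at 0.55 ± 0.23 (edgeR adjusted p = 0.0859). The part of either cell type in the level of Mmp1 was not tested.

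The ETS gene Ets21C (FBgn0005660; 2L:544925-552923, minus strand) lies 87.1 kb from ds. It had 10, 25 and 18 counts in WT and 6, 3, 10 and 42 in ds38k, which is 0.426, 0.713 and 0.623 CPM and 0.224, 0.126, 0.411 and 1.54 CPM. Replicate 4 was the highest of all libraries, and replicates 1 to 3 of ds38k were the lowest. The log2 fold change was -0.03 ± 0.82 (SE; edgeR adjusted p = 0.977), 0.19 ± 0.80 with the length trend removed (edgeR adjusted p = 0.86) and -1.21 ± 0.53 without replicate 4 (edgeR adjusted p = 0.0757). The nAChRbeta3 gene on the other strand covers 28.3% of the exonic bases of Ets21C. It had 0.938, 1.03 and 1.94 CPM in WT and 2.58, 4.20, 3.21 and 0.878 CPM in ds38k. That is above Ets21C in every library but ds38k replicate 4, so the assignment of these few Ets21C reads is uncertain.

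Replicate 4 thus held the highest ds38k value of grnd, hep, Jra, kay, puc, Ilp8 and Ets21C and the lowest of bsk and Mmp1. Its log2 distance from the mean of the other ds38k libraries was 3.77 for Ilp8, 2.51 for kay, 2.39 for Ets21C, 1.26 for puc, 0.82 for Jra and -2.41 for Mmp1. Among all tested genes, 99.3% had a lower distance than Ilp8 in that library, 98.1% a lower one than kay, 97.9% than Ets21C, 93.7% than puc and 90.1% than Jra, and 3.73% a lower one than Mmp1. The ligand, receptor and kinase genes did not share this, with distances of -0.04 for egr, 0.32 for grnd, 0.19 for hep and -0.02 for bsk. In replicate 4, 5 of the 10 members were past 1 log2 unit, beside 18.2% of all tested genes in that library. In WT libraries 0 to 1 members were, beside 4.31% to 8.05% of all genes. In the other ds38k libraries 1 to 3 members were, beside 6.45% to 9.39%. In the same library the heat shock genes Hsp68, Hsp22 and DnaJ-1, chosen after their values were seen, stood at 1614, 533 and 401 CPM, beside at most 35.7, 28.8 and 61.4 CPM elsewhere. Replicate 4 was also the ds38k library nearest WT, with Spearman correlations over genes of 0.893 to 0.905 with the WT libraries. Those of ds38k replicates 1 to 3 with WT were 0.845 to 0.877. In each of 8 genes timed by the steroid ecdysone, replicate 4 was the ds38k library nearest WT. The part of heat shock, of developmental age or of any other property of that library in the AP-1 and output genes was not tested. With a single library there is also no replicate of this difference.

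**Figure D2:**
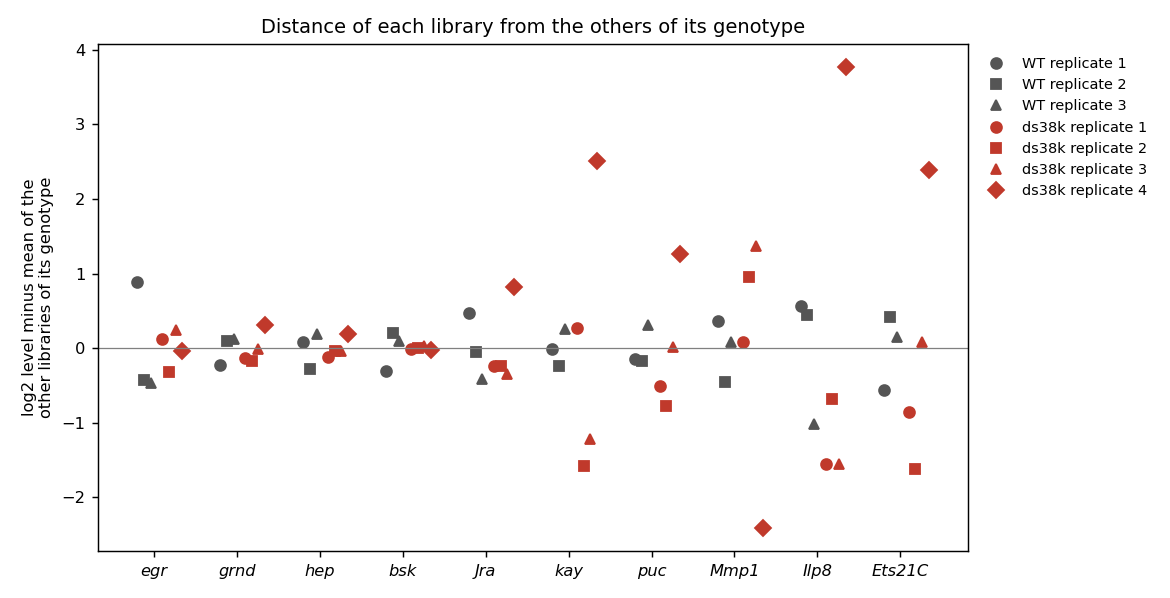
Distance of each library from the mean of the other libraries of its genotype, in log2 CPM, for the 10 genes; grey is WT, red is ds38k, symbols mark the replicates. The ds38k replicate 4 (red diamond) is near 0 for egr and bsk, reaches 3.77 for Ilp8 and 2.51 for kay, and lies at -2.41 for Mmp1.

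**Figure D3:**
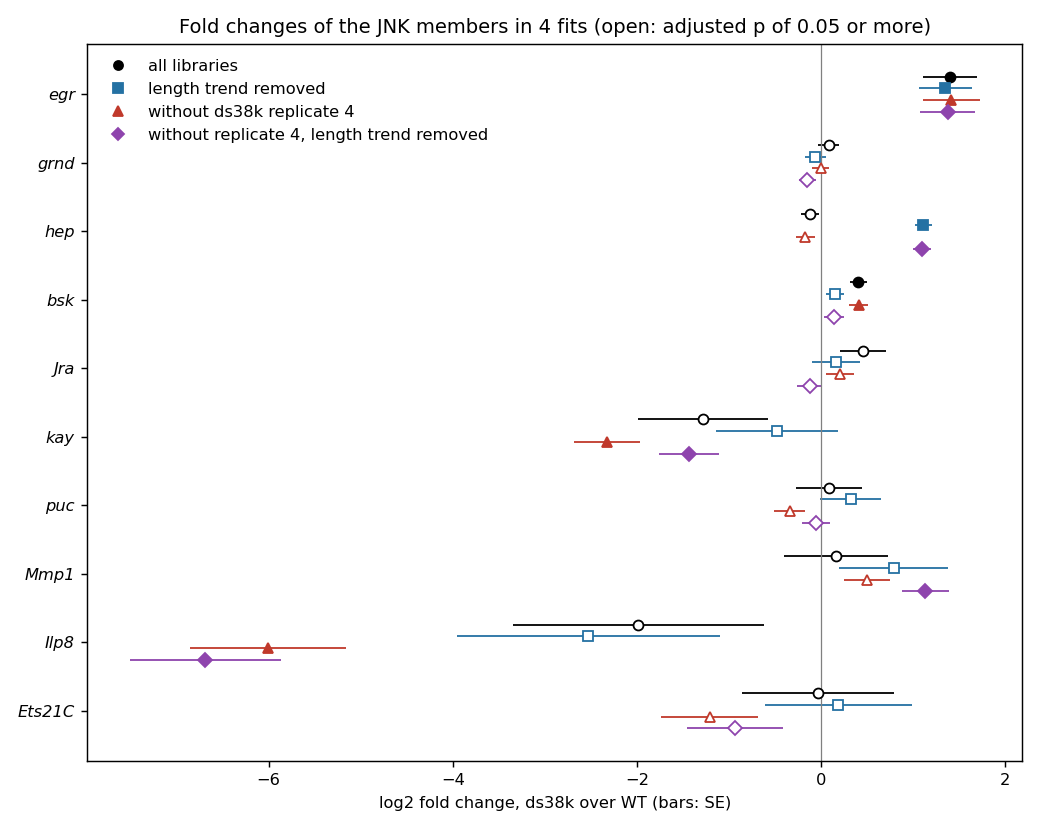
Log2 fold change of ds38k over WT with its SE for the 10 genes over all libraries (black), with the length trend removed (blue), without ds38k replicate 4 (red) and with both changes (purple); filled symbols have an edgeR adjusted p under 0.05. The egr gene is called in all 4 fits, bsk in the 2 without length correction, hep in the 2 with it, kay and Ilp8 in the 2 without replicate 4, and Mmp1 with both changes. In the 2 fits without replicate 4, Ilp8 passed the filter on low counts through WT alone.

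Set against each other per kilobase of median annotated transcript, the WT levels put grnd first (105 ± 9.01 CPM per kb, SD, n = 3) and kay next (74.5 ± 8.59). Both stood clear of bsk, Jra, Mmp1, hep and puc, which lay between 24.4 and 34.4 CPM per kb with overlap between each neighbour in that order. Ilp8 (1.34 ± 0.503) and egr (1.32 ± 0.518) overlapped far below them, and Ets21C was last (0.221 ± 0.0552). The ligand gene was therefore scarce in the discs beside its receptor and kinases. In ds38k grnd was again first (112 ± 13.5 CPM per kb, SD, n = 4), bsk (45.6 ± 0.559) and Jra (44.0 ± 14.2) came next with overlapping ranges, and the range of kay ran from 9.27 to 77.6. Lengths differ between transcripts of each gene, so these levels are approximate.

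A ratio of genes within a library cancels the scaling of that library, apart from the pseudocount of 0.5 CPM. It does not cancel the length trend where its genes differ in length, as Jra (1525 bases) and kay (3738 bases) do. With that trend removed over all libraries, the log2 fold change was 0.16 ± 0.26 for Jra and -0.48 ± 0.67 for kay (SE), so their difference was smaller. The log2 ratio of Jra to kay was -2.19, -2.39 and -2.96 in WT and -0.65, 0.72, 0.37 and -1.54 in ds38k. On this scale, without length correction, the ratio was higher in every ds38k library than in any WT library, replicate 4 least so. Whether each library stays apart with the length trend removed is not shown here. The difference of 2.24 gave p = 0.0571 in the exact permutation test, and 0.0857 after Benjamini-Hochberg adjustment over 3 ratios. The egr to grnd log2 ratio was -5.98 ± 0.58 in WT (SD, n = 3) and -4.77 ± 0.22 in ds38k (SD, n = 4; exact permutation p = 0.0286, adjusted 0.0857), without overlap. For puc over bsk, the feedback phosphatase over its kinase, the ratio was 0.19 ± 0.22 in WT and -0.26 ± 0.68 in ds38k (exact permutation p = 0.314). Replicate 4, at 0.70, lay above every WT library, and the other ds38k libraries, at -0.84 to -0.27, below every one. None of the 3 ratios passed 0.05 after adjustment.

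The other JNK pathway genes were examined as a list of 20 components, of which 19 were tested (Aplip1, a scaffold gene, had too few counts). In ds38k 13 fell and 0 rose, beside 30.8% lower and 34.2% higher calls among all genes, with a median log2 fold change of -0.58 beside 0.07. With the length trend removed 8 fell and 6 rose and the median was 0.02, beside 19.1% lower and 27.6% higher among all genes. Upper-quartile scaling gave 9 falls and 4 rises, beside 2259 lower and 3990 higher of 9294 genes. Leaving out replicate 4 gave 13 falls and 0 rises, beside 34.6% lower and 36.3% higher among all genes. The count of falls thus dropped with the length correction; the 8 genes that fell with and without it were msn, Atf3, wnd, Mekk1, Btk29A, Mkk4, Traf6 and Tak1.

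The gene msn, which encodes a Ste20 kinase that acts upstream in the relay, fell from 464, 476 and 533 CPM in WT to 38.1, 41.7, 43.6 and 83.7 CPM in ds38k. Its log2 fold change was -3.24 ± 0.29 (SE; edgeR adjusted p = 6.33e-05), or -1.95 ± 0.25 with the length trend removed (edgeR adjusted p = 9.93e-04). All ds38k libraries lay far below WT, replicate 4 least so. Of the MAP kinase kinase kinase genes, wnd averaged 103 ± 6.53 CPM in WT (SD, n = 3) and fell to 14.1 ± 5.25 CPM in ds38k (SD, n = 4; log2 fold change -2.87 ± 0.32; edgeR adjusted p = 2.06e-04), and replicate 4 was lowest at 6.44 CPM. Its value with the length trend removed was -1.78 ± 0.34. Mekk1 fell by 1.81 ± 0.08, or 0.48 ± 0.11 with that correction, and Tak1 by 0.58 ± 0.12, or 0.41 ± 0.12. The slpr gene turned, from -0.81 ± 0.08 to 0.48 ± 0.12, both called. Atf3, a bZIP transcription factor gene, fell from a WT mean of 59.2 ± 5.53 CPM (SD, n = 3) to 7.73 ± 3.43 CPM in ds38k (SD, n = 4). Its log2 fold change of -2.93 ± 0.34 (edgeR adjusted p = 2.21e-04) was -1.38 ± 0.31 with the length trend removed (edgeR adjusted p = 0.00929). Wengen, the second TNF receptor, is encoded by wgn, which had 77.5 to 88.8 CPM in WT and 73.1 to 77.7 CPM in ds38k (log2 fold change -0.13 ± 0.08; edgeR adjusted p = 0.153), or 0.02 ± 0.08 after length correction.

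**Figure D4:**
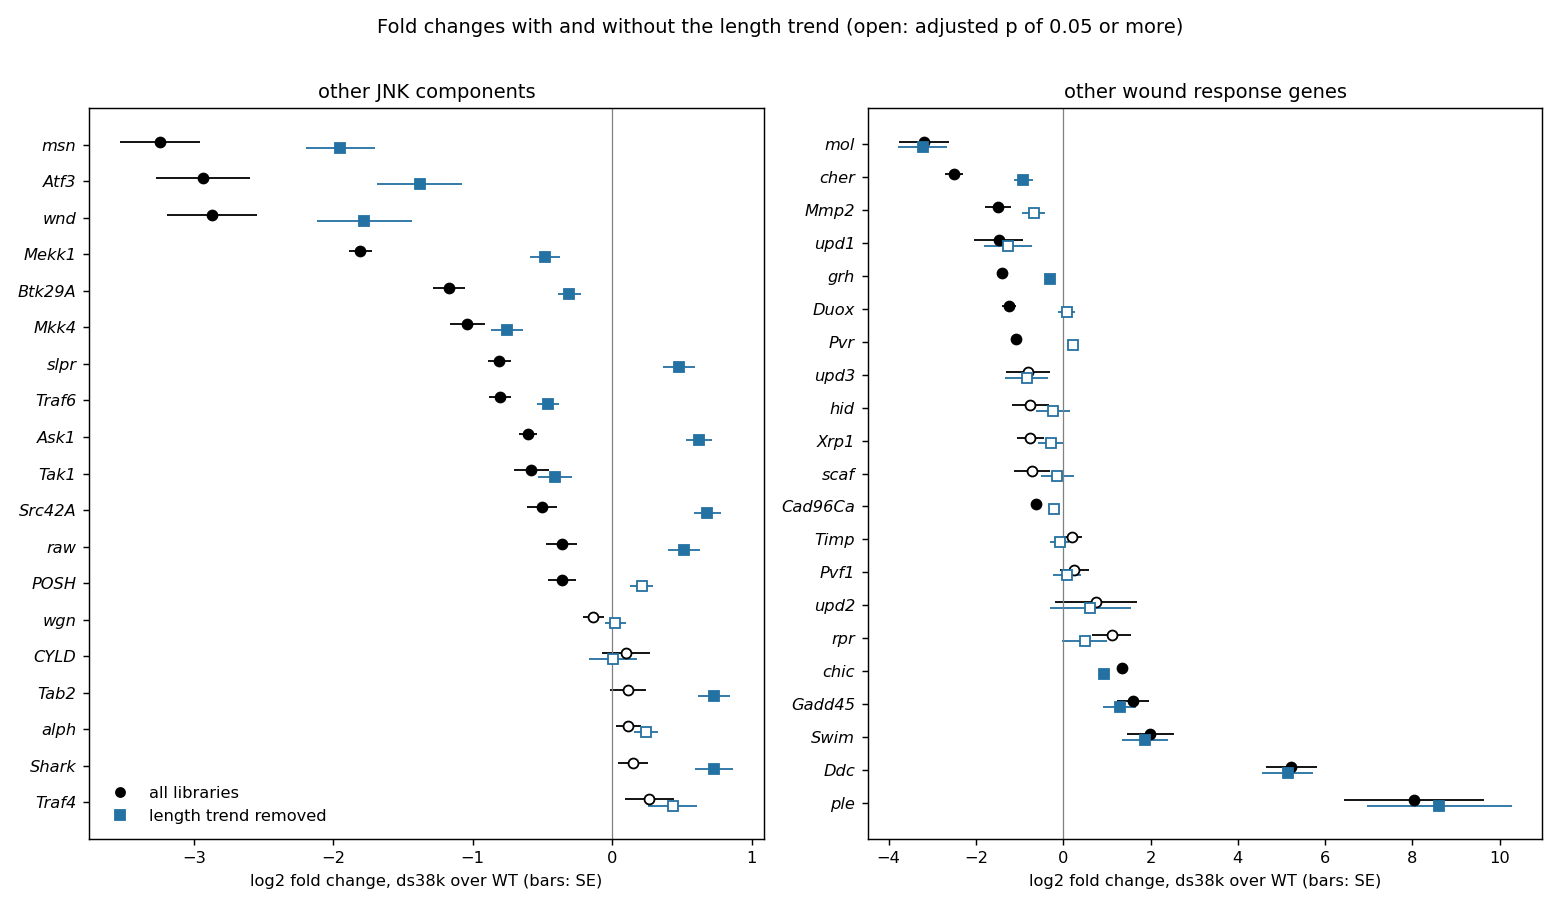
Log2 fold change of ds38k over WT with its SE for 19 other JNK components (left) and 21 other wound response genes (right), over all libraries (black) and with the length trend removed (blue); filled symbols have an edgeR adjusted p under 0.05. Without correction 13 components fell and 0 rose, with it 8 fell and 6 rose, and msn, Atf3 and wnd stay lowest.

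A list of 21 further genes reported to act in wound response or regeneration, all of them tested, held 5 that rose and 8 that fell. Their median log2 fold change was -0.71, beside 0.07 over all genes tested. Together that is 13 of 21, beside 65.0% of all genes called. With the length trend removed 5 rose and 3 fell (mol, cher and grh), beside 46.7%, and the median of the list was -0.08. Without replicate 4, 6 rose and 12 fell, beside 70.9%, so 5 calls were gained by leaving it out, those of rpr upward and of upd3, Xrp1, scaf and hid downward. These last 4 had a log2 fold change between -1.33 and -0.93 without that library.

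The largest rises were in ple, which encodes tyrosine hydroxylase, and Ddc, which encodes dopa decarboxylase, enzymes that feed the hardening and repair of cuticle. The ple gene had 0.0853, 0.257 and 0.208 CPM in WT and 51.2, 94.7, 57.9 and 0.951 CPM in ds38k. It rose by 8.03 ± 1.61 log2 units (SE; edgeR adjusted p = 0.00345). It was scarce in WT and in replicate 4, and the fat body markers too were highest in ds38k replicate 2 and low in WT and replicate 4; their part in ple was not tested. Ddc had 1.02 to 1.18 CPM in WT and 37.6, 54.1, 63.9 and 13.4 CPM in ds38k (log2 fold change 5.22 ± 0.59; edgeR adjusted p = 2.04e-04). Both enzymes are also made when cuticle is built in development, and genes timed by the steroid ecdysone differed too. Of 8 such genes, 5 were called higher and 2 lower in ds38k, beside 34.2% and 30.8% of all genes. Among those higher, ImpE2 had 403 to 567 CPM in WT and 5300 to 7552 CPM in ds38k. Among those lower, ftz-f1 had 59.0 to 87.7 CPM in WT and 0.630 to 5.67 CPM in ds38k. The part of developmental age was not tested. Gadd45, a stress response gene, had 34.8, 18.1 and 18.5 CPM in WT and 53.7, 56.6, 60.1 and 117 CPM in ds38k, and rose by 1.60 ± 0.37 (edgeR adjusted p = 0.00703). Swim, which encodes a secreted carrier of Wingless, rose by 1.99 ± 0.54 (edgeR adjusted p = 0.0133), though not without WT replicate 2 or 3, where the adjusted p reached 0.0543. After length correction the rises were 8.62 ± 1.66 for ple, 5.14 ± 0.59 for Ddc, 1.29 ± 0.38 for Gadd45 and 1.88 ± 0.52 for Swim, all called.

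The largest fall was in mol, which encodes the maturation factor of the oxidase Duox, with 18.4, 21.3 and 23.8 CPM in WT and 1.57, 1.22, 1.15 and 5.27 CPM in ds38k (log2 fold change -3.19 ± 0.56, SE; edgeR adjusted p = 0.00193). Its value with the length trend removed was -3.23 ± 0.55. The filamin gene cher fell by 2.50 ± 0.21, or 0.91 ± 0.21 with that correction. Mmp2, the second matrix metalloproteinase gene of the fly, averaged 62.9 ± 12.7 CPM in WT (SD, n = 3) and 22.3 ± 9.04 CPM in ds38k (SD, n = 4), and fell by 1.50 ± 0.30 (edgeR adjusted p = 0.00333), and was not called with the length trend removed (-0.68 ± 0.26; edgeR adjusted p = 0.0674). The JAK/STAT ligand gene upd1 had 9.93, 13.6 and 11.0 CPM in WT and 6.13, 2.06, 1.36 and 6.91 CPM in ds38k, and fell by 1.48 ± 0.56 (edgeR adjusted p = 0.0482), a call that was lost when any 1 WT library or ds38k replicate 2 or 3 was left out, and with the length trend removed. Its relative upd3, induced by JNK in damaged discs, had 1.41, 1.46 and 0.796 CPM in WT and 0.486, 0.504, 0.452 and 1.32 CPM in ds38k. As for Ilp8 and kay, replicates 1 to 3 lay below WT and replicate 4 inside its range; its log2 fold change was -0.81 ± 0.50 (edgeR adjusted p = 0.19), and -1.33 ± 0.38 without replicate 4 (edgeR adjusted p = 0.0156). Xrp1, a stress-responsive bZIP gene, had 771, 396 and 341 CPM in WT and 263, 261, 267 and 402 CPM in ds38k (log2 fold change -0.75 ± 0.30; edgeR adjusted p = 0.0605), and -0.93 ± 0.29 without replicate 4 (edgeR adjusted p = 0.0231). After length correction upd3 was at -0.84 ± 0.49 and Xrp1 at -0.27 ± 0.30, neither called.

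**Figure D5:**
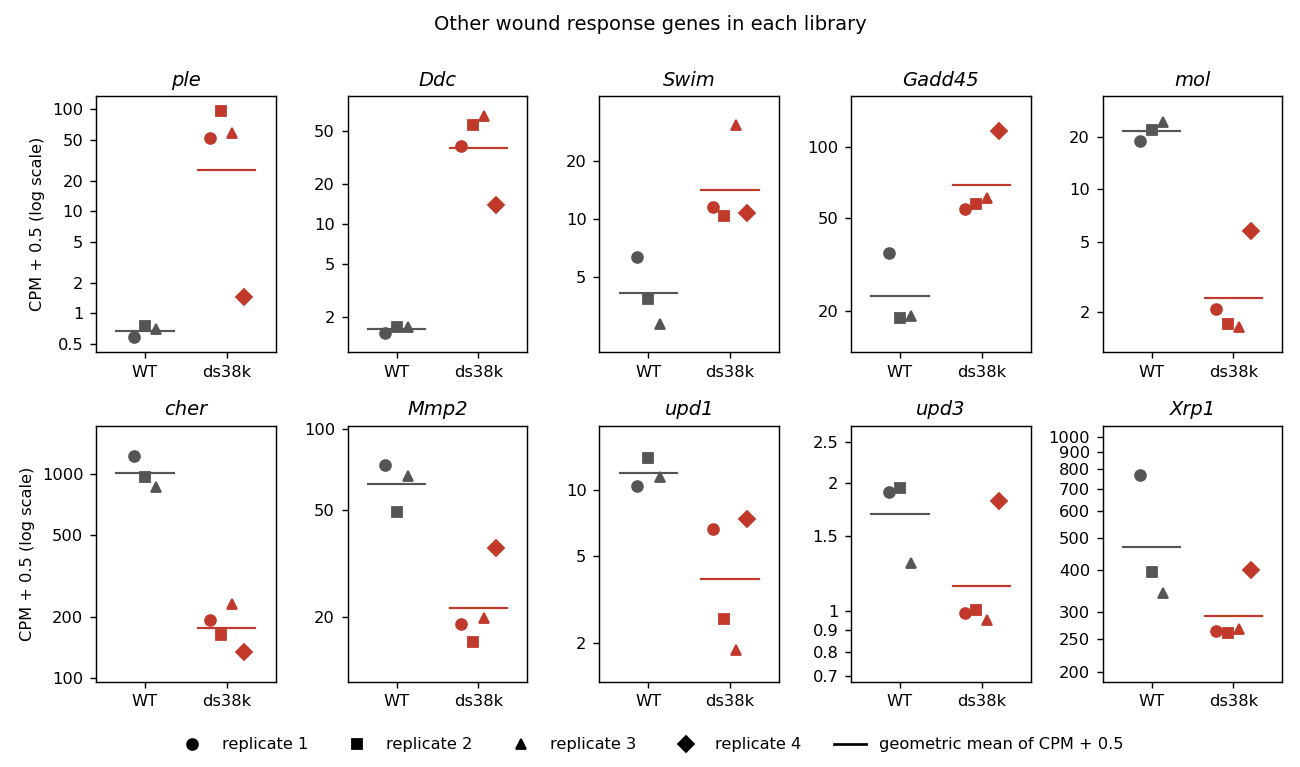
Level of 10 other wound response genes in each library, as CPM + 0.5 on a log axis whose range differs between panels; grey is WT, red is ds38k, symbols mark the replicates and bars the geometric mean of CPM + 0.5. The ds38k replicate 4 (diamond) lies near WT for ple and inside the WT range for upd3, and is the highest ds38k library for Gadd45 and mol.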

How the data were processed

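The authors deposited estimated counts (expected counts) for genes, labelled as raw, which are not all whole numbers and whose totals differ between libraries. The submitters' processing notes list FastQC 0.10, Trimmomatic 0.33, Salmon 1.80 (as written there), edgeR and build dm6 without their roles, while the annotation release was not given in the sources used here. Of these, Salmon is a quantifier that divides reads shared by similar transcripts by a model, so near-identical copies (Hsp70, rRNA) and overlapping genes are uncertain. Per the labels' protocols, ligated cDNA was amplified by PCR and read from both ends.

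The expected counts were rounded. Genes were kept by filterByExpr (minimum count 10), which left 9294 of 17208, and compared by genotype with the quasi-likelihood F-test of edgeR over all 7 libraries with TMM factors, without covariates, with Benjamini-Hochberg adjustment over all genes and a threshold of 0.05 (R 4.3.3, edgeR 4.0.16, limma 3.58.1; DESeq2 1.42.0 as an alternative; figures with Python 3.11.15 and matplotlib 3.10.9). An approximate SE was taken as |log2 fold change| over the root of F. The length correction fits each library's departure from gene means, in log2 CPM (prior count 2), on log2 median transcript length (spline with 5 degrees of freedom) and enters edgeR as an offset; it also removes real change that runs with length. It used 9224 genes. Ratios and permutation tests used a pseudocount of 0.5 CPM. Coordinates and lengths are from annotation BDGP6.54 (dm6 coordinates), where 17083 of the identifiers were found. Replicate libraries differed by more than sampling noise (chi-square per degree of freedom 40.1 to 260), so each counted as 1 sample. The procedure was tested on simulated counts with known changes.

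The members and lists were chosen with earlier results of these data known. The text names the 10 members, ds, the 4 largest called rises and falls of each of the lists of other components and wound genes, and wgn, Tak1, slpr, msn, upd3, Atf3 and Xrp1; any further gene was picked with its values in view. Btk is listed as Btk29A and stit as Cad96Ca. Tracheal and myoblast markers summed to 1880 to 2166 and 177 to 210.3 CPM in WT and 1383 to 1723 and 162 to 197 CPM in ds38k. No sequences were used here.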

Additional observations from a re-analysis of the deposited data

Results flagged for a closer look

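In ds38k the Jra level of replicate 4, 99.6 CPM, stood apart from the other ds38k libraries, with a gap of 0.93 of the range of the group. The Ilp8 level of replicate 4, 1.10 CPM, did so as well, with a gap of 0.96 of the range. Both exceeded Dixon's critical value of 0.829 for 4 samples, which chance alone passes in about 1 of 20 groups of normally distributed values. The 10 members and ds were screened in this way, on CPM that were not log-transformed. For Ilp8, with 0, 1, 0 and 30 counts, that rate need not hold. Both outlying values lie in the same library.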

How the results depend on the processing

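The rise of egr was called under every alternative run. Scaling by upper-quartile factors moved the median over all genes (log2) from 0.07 to 0.33, giving 3990 higher and 2259 lower calls against 3183 and 2859, and 4 higher members (grnd, at 0.34, and Jra, at 0.71, besides egr and bsk) and 4 higher other components. The value of grnd is close to that median. With the length trend removed there were 1761 lower genes, 6 higher and 8 lower other components and 3 lower wound genes; without ds38k replicate 4 as well (chosen after the data were seen) 2 members were lower, and 6 components were higher and 8 lower. Among values called in at least 1 of the fits, sign changes under the length correction, with the value without replicate 4 second, were hep 1.11 and 1.10, slpr 0.48 and 0.55, Ask1 0.62 and 0.68, POSH 0.21 and 0.17, raw 0.51 and 0.60, Src42A 0.68 and 0.64, Duox 0.073 and 0.21, Pvr 0.23 and 0.21; of values not called, grnd went to -0.06, Ets21C to 0.19, wgn to 0.02 and Timp to -0.08, and the puc to bsk difference became 0.063. Leaving out 1 library gave 2 to 2 higher and 0 to 2 lower members, 12 to 13 lower and 0 higher other components, 4 to 6 higher and 7 to 12 lower wound genes, 2730 to 3341 higher and 2492 to 3190 lower genes, and differences of 1.90 to 2.66 for Jra to kay, -0.77 to -0.25 for puc to bsk and 1.04 to 1.55 for egr to grnd. With 2 WT libraries the smallest permutation p is 0.0667 and with 3 against 3 it is 0.1, so those ratios could not pass. The replicate numbers were not taken as pairs, since deviations of same-numbered libraries correlated at 0.0031 to 0.137, not all over 0.1, beside -0.108 to 0.0040 for different numbers. With replicate 4 left out of the means, same numbers gave 0.043 to 0.142, all above the -0.133 to 0.016 of different numbers. With the replicate numbers as a block 3 members were lower (kay, Ilp8 and puc at -0.35). Replicate 4 has no WT partner, so that fit rests on replicates 1 to 3. Among values of single genes, 17 of 765 reversed, 38 gained and 24 lost their call. Ilp8 and Ets21C are limited by depth.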
